A study of Mus musculus with 10 samples.

Results

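The genes described here are the semaphorins and plexins, the ephrins and Eph receptors, the Slits and Robo receptors, and the netrins and Unc5 receptors of the fetal mouse pancreas. All gene symbols of the deposited tables that begin with the names of these families were taken, and 65 of the 70 that matched had at least 20 unique molecular identifiers (UMIs, each standing for 1 captured transcript) over all libraries. They are 65 of 18555 genes with that many UMIs. The 65 comprised 20 semaphorins, 10 plexins (among them the antisense RNA Plxna4os1), 8 ephrins, 13 Eph receptors, 3 Slits, 4 Robo receptors, 3 netrins and 4 Unc5 receptors. *Epha6*, with 10 UMIs, was left out with 4 other entries that had fewer than 20 UMIs.

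The study profiled single cells of pooled embryonic pancreata by droplet sequencing of transcript 3′ ends, and no mutant or treated group enters the comparisons below. From Swiss Webster embryos, all live cells were collected with the first version of the kit (v1), giving 1 library of embryonic day E12.5, 2 of E14.5 (named batch 1 and batch 2) and 1 of E17.5. For each of these stages a further Swiss Webster library, made with the second version (v2), held live CD140a- cells, so the sort itself removed mesenchyme, and the 2 wells of the E17.5 library were summed. The last library came from E14.5 Fev-Cre;ROSA26mTmG embryos, in which Cre driven by *Fev* switches membrane tdTomato to GFP, and its GFP+ and tdTomato+ cells were sorted separately and then loaded together, so the sort sets the mix of cells in that library. The dissociation lasted 10 min at E12.5, 15 min at E14.5 and 30 min at E17.5, so stage and dissociation time cannot be told apart. Each of the 8 libraries is a pool, and the pools span stages, kits, sorts and strains. In comparisons of classes, p-values below measure how the difference within a library varies between pools. In comparisons of stages they measure the spread between pools that is left after stage and kit.

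Of 66017 deposited barcodes, 57982 were kept, with median depths of 2952 to 11783 UMIs per kept barcode. Cells were clustered without the guidance genes and other pathway genes, and clusters were named from marker lists, which is why each class is called "-like". The lists named 46268 cells, 7899 stayed unnamed, 1609 were set aside as doublets, and 2206 were excluded because markers of another compartment led their cluster. The classes used most were 7968 ductal-like, 1302 Ngn3+-like, 1519 Fev+-like, 1989 alpha-like, 1729 beta-like, 6554 acinar-like, 6287 mesothelial-like and 743 endothelial-like cells. Most markers were highest in their own class: all 7 for Ngn3+-like, all 10 for acinar-like, 6 of 8 for ductal-like, 5 of 7 for Fev+-like, 7 of 8 for alpha-like and 5 of 8 for beta-like cells. Haemoglobin transcripts made up from 0.0128% of the UMIs in the Fev-Cre library to 60.9% in the E17.5 v1 library. Libraries shared 10 to 155 barcode sequences, at most 1.79% of the smaller library.

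Guidance proteins were named for steering growing axons, and the same ligands and receptors act between many non-neuronal cells. Class 3 semaphorins are secreted and usually bind neuropilins together with plexins, whereas classes 4, 5 and 6 are membrane proteins that bind plexins directly. Ephrins are held in the membrane, the A type by a lipid anchor and the B type by a transmembrane segment, and they meet Eph receptor kinases on the neighbouring cell, so contact is required and both cells can respond. Slits are large secreted proteins bound by Robo receptors, and netrins are laminin-related secreted proteins bound by Dcc, neogenin and Unc5 receptors. In blood vessels, Robo4, Plxnd1, ephrin-B2 and Ephb4 are known for roles in vessel patterning, and in the pancreas endocrine cells arise from ductal epithelium that passes through a Ngn3+ stage and, after it, a Fev+ stage.

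The promoters of 3 genes are printed to show the letters before genes named in the comparison of Ngn3+-like with ductal-like cells below, *Sema3g* for the Ngn3+ direction and *Efna1* and *Epha1* for the ductal direction. They were picked by adjusted p, and all 3 could be tested only because of the class in which they were high, so the choice is a description. Neurogenin 3, the factor that gives the Ngn3+ cells their name, is a basic helix-loop-helix protein, a class that binds the letters CANNTG. The runs below are the 250 bases before a RefSeq start of each gene in build GRCm38.p6 (for *Efna1* the first of 2 listed, neither of which holds a match), printed on the gene's strand with every CANNTG in capitals (the motif reads the same form on both strands).
Sema3g, chr14:31217623-31217872, + strand: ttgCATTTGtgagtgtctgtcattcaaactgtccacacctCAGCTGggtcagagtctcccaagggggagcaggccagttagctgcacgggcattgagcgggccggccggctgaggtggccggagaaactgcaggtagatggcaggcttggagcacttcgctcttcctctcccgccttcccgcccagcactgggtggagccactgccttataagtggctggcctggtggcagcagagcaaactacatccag
Epha1, chr6:42373269-42373518, - strand: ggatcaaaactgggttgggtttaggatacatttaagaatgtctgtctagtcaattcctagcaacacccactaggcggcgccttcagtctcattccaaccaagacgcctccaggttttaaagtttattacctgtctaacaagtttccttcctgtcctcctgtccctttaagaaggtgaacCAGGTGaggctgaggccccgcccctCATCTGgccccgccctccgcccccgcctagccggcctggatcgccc
Efna1, chr3:89280952-89281201, - strand: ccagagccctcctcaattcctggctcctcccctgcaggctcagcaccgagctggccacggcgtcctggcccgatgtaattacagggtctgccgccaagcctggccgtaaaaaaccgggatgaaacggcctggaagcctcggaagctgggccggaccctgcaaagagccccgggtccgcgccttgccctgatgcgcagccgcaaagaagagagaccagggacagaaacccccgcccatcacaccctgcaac
The *Sema3g* run holds 2 matches, 1 of them CAGCTG, the *Epha1* run holds 2, and the *Efna1* run holds 0. A match was found in 66.2% of 32851 promoters of this length and in 35 of 71 promoters (49.3%) of the 55 guidance genes with an entry. The CAGCTG form was in 13.0% of all promoters and in 11 of the 71 (15.5%). These matches describe the letters in the window and were not tested as sites.

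Levels are given as CPM, the UMIs of a gene per 1000000 UMIs of its class and library. Because each transcript is counted at its 3′ end, CPM does not scale with gene length. The guidance genes were spread over all compartments: a mean over libraries was highest in endothelial-like cells for 12 members, in mesothelial-like cells for 11, in neural crest- and glia-like cells for 8, in vascular smooth muscle (VSM)-like cells for 8, in other mesenchymal cells for 5, in immune-like cells for 5 and in Ngn3+-like cells for 5. Acinar-like and ductal-like cells led for 3 members each, alpha-like and beta-like cells for 2 each, and Fev+-like cells for 1. Delta-, epsilon- and erythroid-like cells were not ranked. For 4 members, *Epha5*, *Robo4*, *Ntn1* and *Plxnd1*, the libraries of the leading class did not overlap those of the next. For the other 61 the libraries of the leading class and its neighbour overlapped. The same share over all genes was not taken, so these counts describe the members and cannot be called many or few. The class of other mesenchymal cells includes the VSM-like cells, so where these classes ranked first and second, overlap was partly built in. In bulk sums such as these, fewer cells with a transcript and less transcript per cell cannot be told apart.

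**Figure D1:**
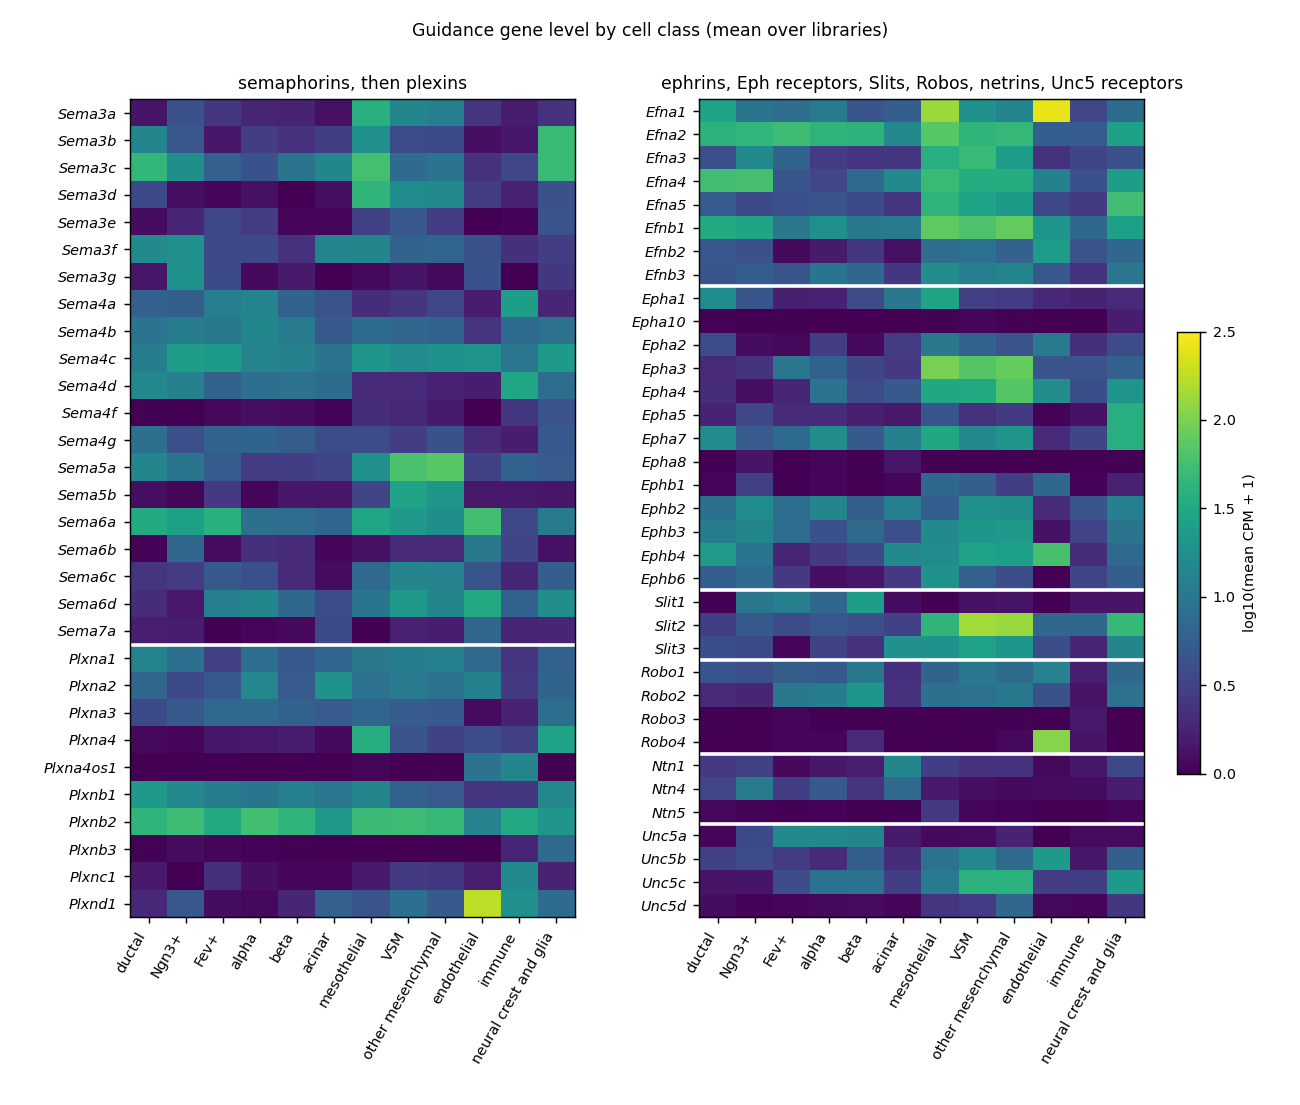
Heatmap of the mean level of each of the 65 guidance genes (rows, grouped by family) in 12 cell classes (columns), as log10 of mean CPM plus 1 over the libraries of the class; the column of other mesenchymal cells includes the VSM-like cells. Robo4 and Plxnd1 stand out in the endothelial-like column, Epha5 in the neural crest and glia column and Ntn1 in the acinar-like column.

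*Robo4*, the vascular member of the Robo receptors (chr9:37401897-37415115, + strand), had a mean of 111 CPM in endothelial-like cells (lowest library 53.0, highest 247) and 1.02 CPM in beta-like cells, the next class. *Plxnd1*, the plexin of vessels and a receptor for class 3 semaphorins, stood at 176 CPM (33.9 to 337) in endothelial-like and 16.9 CPM in immune-like cells. *Epha5* was at 35.7 CPM (25.0 to 60.6) in neural crest- and glia-like cells of 4 libraries and 3.67 CPM in mesothelial-like cells, the next of the 12 classes ranked. In epsilon-like cells, which were not ranked, it was at 5.12 and 17.6 CPM in 2 libraries, on 7 UMIs. *Ntn1* (chr11:68209364-68400823, - strand), a netrin, was at 13.1 CPM (3.60 to 23.2) in acinar-like cells and 2.49 CPM in neural crest- and glia-like cells. Its lowest acinar-like library (E12.5 v1, 3.60 CPM) and highest neural crest- and glia-like library (Fev-Cre, 3.57 CPM) held 2 UMIs each. The lack of overlap between these classes thus rests on nearly equal values. For *Robo4*, *Plxnd1* and *Epha5* no library of any other ranked class reached the lowest library of the leading one. For *Ntn1* the ranges of Ngn3+-like (up to 8.66 CPM) and mesothelial-like cells (up to 4.24 CPM) overlapped that of acinar-like cells.

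UMIs summed over all libraries rank members within a family, but libraries that differ in depth and sort weigh unequally in them. By this sum the leading semaphorins were *Sema3c* (10228 UMIs), *Sema5a* (9095), *Sema6a* (8215) and *Sema4c* (4702), and the leading plexin was *Plxnb2* (16763), a receptor for class 4 semaphorins, ahead of *Plxnb1* (4695), *Plxna2* (4510) and *Plxna1* (3172). Among the ephrins *Efnb1* (15136), *Efna4* (13208), *Efna2* (12931) and *Efna1* (10910) led, and among their receptors *Epha3* (11226), *Epha4* (9209), *Epha7* (7951) and *Ephb4* (5894). *Slit2* (12831) far exceeded *Slit3* (5137) and *Slit1* (1030), while the Robo receptors were sparse, with 2151 UMIs for *Robo2*, 1890 for *Robo1*, 560 for *Robo4* and 34 for *Robo3*. Of the netrins, *Ntn1* had 1659 UMIs, with 973 for *Ntn4* and 123 for *Ntn5*, and of their Unc5 receptors *Unc5c* (5405) led *Unc5b* (1616), *Unc5a* (875) and *Unc5d* (803).

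The step from duct to endocrine progenitor was compared in all 8 libraries, with the library as a block, by edgeR's quasi-likelihood test on summed UMIs. A gene was called when its Benjamini-Hochberg adjusted p over all genes tested was below 0.05 and its change at least 2-fold. Of the 65 members, 20 passed the filter on low counts, 2 were higher in Ngn3+-like cells and 7 lower. Over all genes tested, 9.46% were called higher and 12.2% lower. The median member was at a log2 difference of -0.46, against -0.03 for all genes tested. A gene that passes the filter only through the class where it is high is tested because it is high there, so the counts and medians in this and the later comparisons of classes describe the members that could be tested and support nothing about the families. The adjusted p of each such gene is likewise a description and not a test of the gene. Here the filter asked for 7.73 CPM in 8 of the 16 sums, which 1 member (*Sema3g*) met through Ngn3+-like cells only and 5 through ductal-like cells only. With no filter 64 members were tested, 12 were higher and 11 lower, beside 1905 higher and 2065 lower of all 19602 genes in that fit. The 10 higher calls added, such as *Slit1*, *Ntn4*, *Unc5a* and *Efna3*, rest on 4 to 116 UMIs in Ngn3+-like cells. In the v1 libraries alone 6 members passed the filter and 1 was called, and in the libraries made with the v2 kit 33 passed and 15 were called. Shares over all genes are not given for the fits by kit, so these counts show only that the calls depend on the libraries.

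*Sema3g*, a secreted class 3 semaphorin (chr14:31217860-31230352, + strand), reached the filter in 8 of 8 libraries of Ngn3+-like and 0 of 8 of ductal-like cells, so that being tested already set its direction. Its level in Ngn3+-like cells was 8.94 CPM in the lowest library, 17.9 in the median and 29.4 in the highest. In ductal-like cells 5 of 8 libraries had no UMI at all and the highest, E12.5 v1, had 3.22 CPM, which is a single UMI. The groups did not overlap, with 120 UMIs in 1302 Ngn3+-like cells against 5 UMIs in 7968 ductal-like cells. The difference was 7.30 ± 0.40 (log2 ± SE, adjusted p = 5.29e-10), higher in 8 of 8 libraries, and for the same reason this p is a description and not a test of the gene. The gene fell below the count filter, and so could not be tested, without any 1 of the E12.5 v2, Fev-Cre and E17.5 v2 libraries, and in the v1 libraries alone.

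*Sema4c*, a membrane semaphorin that binds B-type plexins, rose from 10.5 ± 5.03 CPM in ductal-like to 23.6 ± 14.0 CPM in Ngn3+-like cells (SD, n = 8 libraries). Its levels in Ngn3+-like cells ran from 0 to 45.0 CPM with a median of 22.0, and in ductal-like cells from 4.73 to 19.3 with a median of 8.44, so the ranges overlapped. The difference was 1.47 ± 0.23 (log2, adjusted p = 4.45e-05), higher in 7 of 8 libraries. The exception, E17.5 v1, had 23 Ngn3+-like cells, where 1 UMI is worth 14.7 CPM.

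The genes that fell between ductal-like and Ngn3+-like cells included the ephrin *Efna1* and the receptor *Epha1*. *Efna1* (chr3:89271733-89281142, - strand) was at 27.1 ± 14.2 CPM in ductal-like and 8.09 ± 9.26 CPM in Ngn3+-like cells, with medians of 25.1 and 5.70. It was lower in 8 of 8 libraries, by a log2 difference of -1.81 ± 0.24 (adjusted p = 9.99e-06). *Epha1*, an Eph receptor that binds A-type ephrins (chr6:42358487-42373268, - strand), had a lowest, median and highest level of 10.5, 13.7 and 29.0 CPM in ductal-like cells. The same 3 values in Ngn3+-like cells were 0, 2.58 and 11.5 CPM. *Epha1* fell by 2.15 ± 0.32 on the log2 scale (adjusted p = 3.09e-05). Both *Efna1* and *Epha1* passed the filter through ductal-like cells only, where they were high. The adjusted p of each is thus a description and not a test, and their shared direction is no result about ligand and receptor. *Epha1* was below it without the E17.5 v2 library, and both were in the v1 libraries alone.

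*Ephb4*, the receptor of ephrin-B2, was at 22.5 ± 12.4 CPM in ductal-like and 8.46 ± 8.34 CPM in Ngn3+-like cells (log2 difference -1.30 ± 0.24, adjusted p = 0.000275). *Sema3c* stood at 43.8 ± 12.4 CPM in ductal-like and 16.5 ± 10.3 CPM in Ngn3+-like cells (-1.13 ± 0.22, adjusted p = 0.000461). Both were lower in 8 of 8 libraries. *Sema3c* passed the filter through ductal-like cells only, where it was high. Its adjusted p is thus a description and not a test of the gene. *Ephb4*, at 0 to 26.0 CPM in Ngn3+-like cells, did not meet the filter through them alone, so its being tested leaned towards ductal-like cells as well. In the v2-kit libraries alone *Sema3c* changed by less than 2-fold (-0.97) and was not called, and in the v1 libraries alone *Ephb4* was below the filter. The other 3 called members were lower in most libraries but not in all: *Sema3b* (-2.14 ± 0.32) and *Epha7* (-1.64 ± 0.31) in 7 of 8, and *Sema5a* (-1.004 ± 0.21) in 6 of 8. These 3 did not meet the filter through Ngn3+-like cells alone either.

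An adjusted p below 0.05 was reached by 14 of the 20, and 5 of these changed by less than 2-fold. The share of all genes at that adjusted p is not given here, so the 14 are a count without a background. Among the 11 members tested but not called, log2 differences ran from -0.95 (*Sema6a*, whose adjusted p of 0.00356 came with less than a 2-fold change) to 0.98 (*Ephb2*). The abundant *Efna4* was at 53.6 ± 17.1 CPM in ductal-like and 56.9 ± 31.4 CPM in Ngn3+-like cells, higher in 4 of 8 libraries (0.22 ± 0.28). *Efnb1* (-0.12 ± 0.14), *Efna2* (0.20 ± 0.15), *Plxnb2* (0.06 ± 0.19) and *Plxnb1* (-0.31 ± 0.21) also gave no call. Some members too sparse for the test still had values of note in Ngn3+-like cells. *Slit1* had 71 UMIs there and 4 in ductal-like cells, with means of 8.64 ± 7.59 and 0.031 ± 0.0487 CPM, and was higher in 6 of 8 libraries. *Ntn4*, a laminin-binding netrin, was at 9.68 ± 4.17 against 2.43 ± 1.74 CPM, higher in 8 of 8.

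Of the 52 other pathway genes, 25 were tested, 7 were higher and 4 lower in Ngn3+-like cells. The 4 with the lowest adjusted p were *Lingo1* (4.51), a co-receptor of the nerve cell surface, *Vasp* (1.61), an actin regulator, *Flrt2* (-1.95), a membrane ligand of Unc5 receptors, and *Dpysl4* (3.61), of the collapsin response mediators, all as log2 differences. The markers of other cell types gave these values beside the comparison. None of the 4 tested mesenchymal markers was called (summed level 14.2 to 144 CPM in Ngn3+-like and 8.75 to 129 CPM in ductal-like cells), nor the 1 endothelial marker tested (28.1 to 79.3 and 47.5 to 151 CPM). Of 10 acinar markers 1 was higher (88.2 to 6389 and 187 to 2833 CPM), and of 8 beta markers 4 were higher and 1 lower. The part of these cells in the result was not tested.

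**Figure D2:**
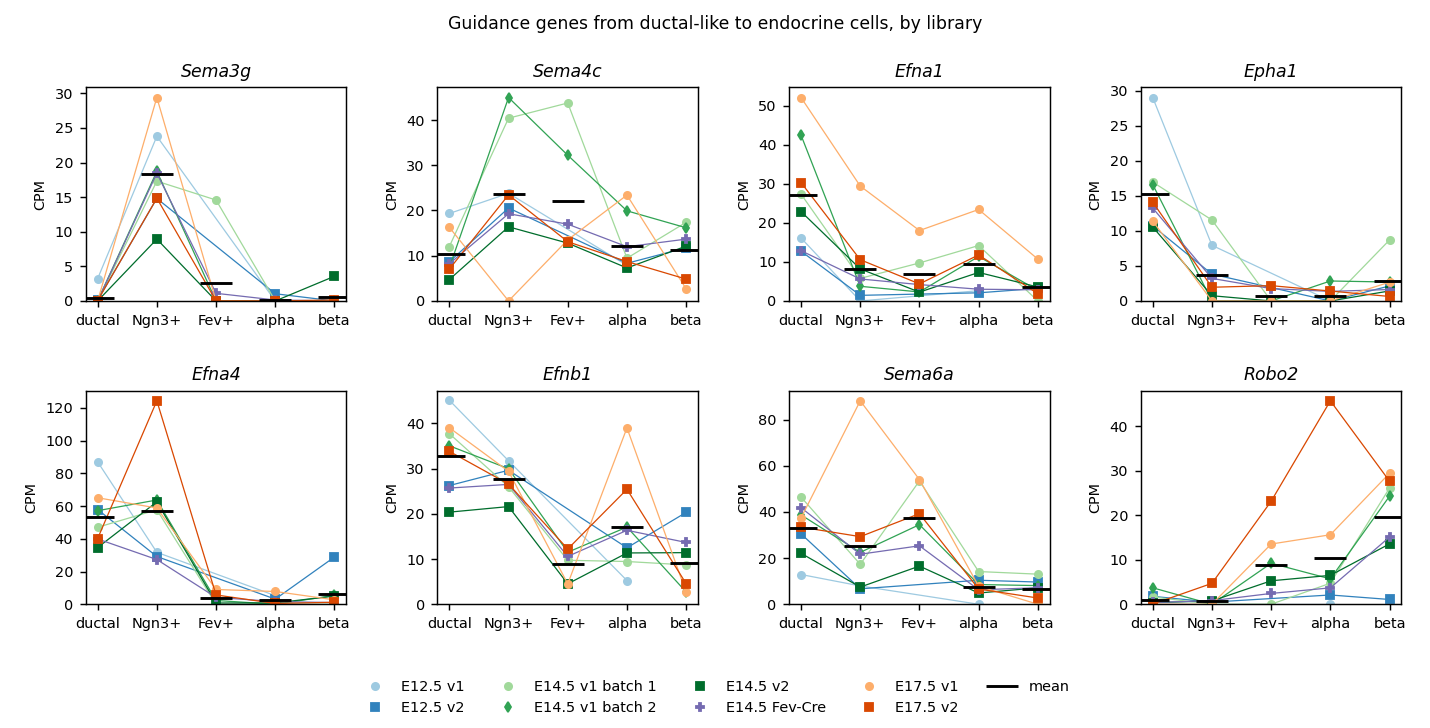
CPM of 8 guidance genes in ductal-, Ngn3+-, Fev+-, alpha- and beta-like cells; each line joins the classes of 1 library, each point is that library's summed level, and the black bar is the mean over libraries. Sema3g is near 0 in ductal-like cells and at 8.94 to 29.4 CPM in Ngn3+-like cells, Efna4 drops from Ngn3+- to Fev+-like cells, and Robo2 has its highest mean in beta-like cells, although its highest library is alpha-like E17.5 v2 at 45.7 CPM.

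The next step, from Ngn3+-like to Fev+-like cells, was compared in the 6 libraries with at least 20 cells of both classes, namely the Fev-Cre, 3 other E14.5 and 2 E17.5 libraries. Of 9 members tested 0 were called higher and 3 lower, where 7.12% of all genes were called higher and 7.79% lower. Of the 6 not called, log2 differences lay between -0.54 (*Sema4c*) and 0.34 (*Sema6a*), and 0 of those above 0 had an unadjusted p below 0.05. DESeq2 also called 0 members higher. With no low-count filter, edgeR called 4 of 64 members higher (*Unc5a*, *Sema6d*, *Epha3* and *Robo2*) and 11 lower, beside 1177 and 1175 of all 17700 genes, so the count of 0 holds for the members that passed the filter. The filter was met by 2 members through Fev+-like cells only and by 2, *Efna4* and *Efnb1*, through Ngn3+-like cells only. Without TMM, the scaling of library composition, the median of all genes moved to 0.183 and the split over all genes from 536 higher and 587 lower to 707 and 476.

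*Efna4*, a lipid-anchored ephrin that was not called between ductal-like and Ngn3+-like cells (chr3:89333390-89338028, - strand), was lower in Fev+-like cells. In Ngn3+-like cells of these libraries it lay between 27.3 and 124 CPM, and in Fev+-like cells between 0 and 9.01 CPM with a median of 3.24. The groups did not overlap, and the difference was -4.13 ± 0.33 (log2, adjusted p = 1.42e-07), lower in 6 of 6 libraries. *Efnb1*, a transmembrane ephrin, was at 26.7 ± 2.99 CPM in Ngn3+-like and 8.84 ± 3.46 CPM in Fev+-like cells, again without overlap (21.6 to 30.0 against 4.51 to 12.2). It fell by 1.62 ± 0.24 on the log2 scale (adjusted p = 6.98e-05), and was below the filter without the Fev-Cre or the E17.5 v2 library and in the v1 libraries alone. Both *Efna4* and *Efnb1* were tested through Ngn3+-like cells only, where they were high. The adjusted p and lack of overlap of each are thus a description and not a test of the gene.

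*Sema3g* returned to low levels. It was 18 ± 6.68 CPM in Ngn3+-like and 2.61 ± 5.88 CPM in Fev+-like cells, where 4 of 6 libraries had no UMI (log2 difference -4.20 ± 0.58, adjusted p = 3.22e-05). The E14.5 v1 batch 1 library, at 14.6 CPM in Fev+-like and 17.3 CPM in Ngn3+-like cells, was the exception in size though not in sign. There 1 UMI of the 78 Fev+-like cells is worth 4.86 CPM. The gene fell below the filter without the Fev-Cre, E14.5 v2 or E17.5 v2 library, in the v1 libraries alone, with finer clustering, and when the members took part in the clustering. Of 10 acinar markers 4 were lower in Fev+-like cells (40.5 to 1391 CPM summed, against 88.2 to 6389), and their part in these results was not tested.

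The sparse members are given as values. *Unc5a*, a netrin receptor, was at 14.52 ± 8.43 CPM in Fev+-like and 2.64 ± 2.67 CPM in Ngn3+-like cells, higher in 6 of 6 libraries. *Robo2*, a Slit receptor, was at 8.92 and 1.04 CPM and higher in 5 of 6, and *Sema6d* at 10.8 and 0.326 CPM and higher in 5 of 6. *Ntn4* went the other way, at 1.87 against 10.7 CPM, in 6 of 6. Of the pathway genes 20 were tested, 2 were higher and 3 lower, with *Lingo1* (-2.86), *Dpysl4* (-2.45) and *Pak3* (2.42), a neuronal kinase, called, while *Vasp* (-0.78) was not.

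From Fev+-like to hormone+-like cells, the alpha-like and beta-like cells summed, 9 members were tested, 1 was higher and 1 lower, with 3.1% of all genes called higher and 1.59% lower. *Robo2* was at 8.92 ± 8.46 CPM in Fev+-like and 17.9 ± 9.17 CPM in hormone+-like cells, higher in 6 of 6 libraries although the ranges overlapped (0 to 23.1 and 8.25 to 31.8 CPM). Its difference was 1.39 ± 0.22 (log2, adjusted p = 0.000893). Dropping the library block removed that call (adjusted p = 0.314), and the gene fell below the filter without the Fev-Cre, E14.5 v2 or E17.5 v2 library, in the v1 libraries alone, with finer clustering, and when the members were allowed among the clustering genes.

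*Sema6a*, a transmembrane semaphorin that binds A-type plexins, was at 37.2 ± 15.0 CPM in Fev+-like cells, between 16.5 and 54.1. In hormone+-like cells of the same libraries it was at 6.70 ± 4.05 CPM, between 1.99 and 13.6. The groups did not overlap, and it fell by 2.11 ± 0.24 on the log2 scale (adjusted p = 7.06e-05). It passed the filter through Fev+-like cells only, where it was high, so this p is a description and not a test of the gene. *Plxnb2* reached an adjusted p of 0.0104 but changed by less than 2-fold (0.69 ± 0.17). Of 20 pathway genes tested edgeR called 0 in this step. At an unadjusted p below 0.05 there were 4, all under a 2-fold change: *Sh2d3c* (-0.67), *Vasp* (-0.46), *Lingo1* (0.58) and *Nck1* (-0.27). Without TMM the median of all genes moved to -0.322 and the split of calls over all genes from 248 higher and 127 lower to 154 higher and 326 lower, whereas both member calls stood on the same side.

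Beta-like and alpha-like cells were compared in 7 libraries. Of 10 members tested 1 was higher in beta-like cells and 1 lower, and 2.82% and 2.43% of all genes were called in the same directions. Of the 13 Eph receptors 0 passed the filter. Among members below it, the fit with no filter called 4 higher (*Unc5b*, *Robo1*, *Efna4* and *Sema3c*) and 4 lower (*Epha4*, *Epha7*, *Ephb2* and *Epha3*). The share of all genes called in that fit is not given here, so these are a description. Without TMM the median of all genes moved to -0.212, with 158 called higher and 327 lower in place of 226 and 195, and the members' split was 1 and 2. *Slit1*, a secreted Slit (chr19:41600257-41743665, - strand), ran from 1.07 to 45.5 CPM in beta-like cells, with a median of 25.4. In alpha-like cells of the same libraries it ran from 0 to 14.2 CPM, and it was higher in beta-like cells of 6 of 7, the exception being E12.5 v2 (1.07 against 3.12 CPM). The difference was 1.99 ± 0.40 (log2, adjusted p = 0.00423). Without the Fev-Cre, E14.5 v2 or E17.5 v2 library 3 or 4 members passed the filter and edgeR called 0 of them, with at most 1 at an unadjusted p below 0.05.

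*Robo2*, the Slit receptor (chr16:73891839-74411825, - strand), was at 19.6 ± 10.2 CPM in beta-like cells, with a lowest library of 1.07, a median of 24.3 and a highest of 29.4, and at 11.99 ± 15.5 CPM in alpha-like cells of the same libraries. It was higher in beta-like cells of 5 of 7, the exceptions being E12.5 v2 (1.07 against 2.08 CPM) and E17.5 v2 (27.6 against 45.7 CPM), and the difference (0.99 ± 0.32, adjusted p = 0.0529) did not pass. *Plxna2* was at 14.4 ± 8.31 CPM in alpha-like and 4.26 ± 4.74 CPM in beta-like cells, lower in beta-like cells of 7 of 7 libraries (-1.09 ± 0.31, adjusted p = 0.0329). That call was lost without the library block (adjusted p = 0.22) in either kit alone and without any 1 of the 7 libraries, through the filter or through the test. *Unc5a* was nearly level, at 13.2 ± 7.34 CPM in beta-like and a difference of -0.07 ± 0.20. Of 21 pathway genes tested *Lingo1* was higher (1.14) and *Tspan12*, a tetraspanin, lower (-1.85) in beta-like cells.

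Acinar-like cells, which make digestive enzymes, were set against ductal-like cells in 7 libraries. Of 27 members tested 3 were higher and 9 lower, against 5.69% and 8.51% of all genes. The filter was met by 3 members through acinar-like cells only and by 11 through ductal-like cells only. Without TMM scaling the median of all genes moved to -0.472 and the members' split to 3 higher and 15 lower, with 337 higher and 1939 lower over all genes in place of 596 and 891, so the calls are relative to the scaling.

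The higher members were a netrin, a Slit and a plexin. *Ntn1* ran from 3.60 to 23.2 CPM in acinar-like cells, with a median of 12.2, and was at 1.74 ± 1.25 CPM in ductal-like cells, between 0 and 3.22. The ranges did not overlap, and the difference was 3.47 ± 0.54 (log2, adjusted p = 0.000441), though the gene fell below the filter without the Fev-Cre, E14.5 v2 or E17.5 v2 library. *Plxna2* was at 18.1 ± 5.43 against 5.25 ± 5.08 CPM, higher in 7 of 7 libraries (2.82 ± 0.45). *Ntn1* and *Plxna2* passed the filter through acinar-like cells only, where they were high. The adjusted p of each is thus a description and not a test of the gene. *Slit3* was at 17.54 CPM in acinar-like and 2.15 CPM in ductal-like cells and higher in 6 of 7, with no UMI in either class of E17.5 v1 (3.39 ± 0.47).

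Among the lower members *Efna1* was at 4.69 ± 1.53 CPM in acinar-like and 29.1 ± 14.0 CPM in ductal-like cells and differed by -2.03 ± 0.18 (adjusted p = 7.35e-06). *Efna4* (14.0 against 53.0 CPM, -1.82 ± 0.25), *Efnb1* (-1.53 ± 0.22) and *Efna2* (-1.64 ± 0.32) were lower too, so all 4 ephrins tested were lower. That count describes the ephrins that could be tested and not the family. *Efna1* and *Efnb1* reached the filter's 2.64 CPM in every acinar-like library. *Efna4* (0 CPM in E17.5 v1) and *Efna2* (0.536 CPM in E17.5 v2) did not, so their being tested leaned towards ductal-like cells, where they were high. The rest of the 8 ephrins did not pass the filter. Of those, *Efnb2* (-2.26), *Efnb3* (-1.69) and *Efna5* (-1.52) were called lower when no filter was used. The semaphorins lower here were *Sema3b* (-2.69 ± 0.31), *Sema6a* (-2.43 ± 0.30), *Sema5a* (-2.09 ± 0.36) and *Sema3c* (-1.24 ± 0.20), as was *Ephb3* (-1.04 ± 0.28). Neither these semaphorins nor *Ephb3* reached the filter's level in every acinar-like library, so their being tested leaned the same way. *Efna2* and *Ephb3* lost their calls without the library block (adjusted p = 0.0630 and 0.0581). In the v2-kit libraries alone 7 of the calls were lost, those of *Efna2* (adjusted p = 0.107), *Efnb1* (0.0782), *Sema3c* (0.0517), *Sema5a* (0.0888), *Ntn1* (0.0787), *Plxna2* (0.0597) and *Ephb3* (0.227). In the v1 libraries alone *Efna1*, *Ntn1*, *Plxna2*, *Sema3b*, *Sema5a*, *Sema6a* and *Ephb3* were below the filter, as *Sema5a* was without the E14.5 v2 or E17.5 v2 library. *Ephb3* also lost its call without either E14.5 v1 batch, and with doublets kept, and fell below the filter without the Fev-Cre, E14.5 v2 or E17.5 v2 library. Of 32 pathway genes tested 2 were higher and 6 lower, led by *Pdlim7* (-1.28), *Enah* (-1.02), *Mical1* (-2.58) and *Fyn* (1.85).

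**Figure D3:**
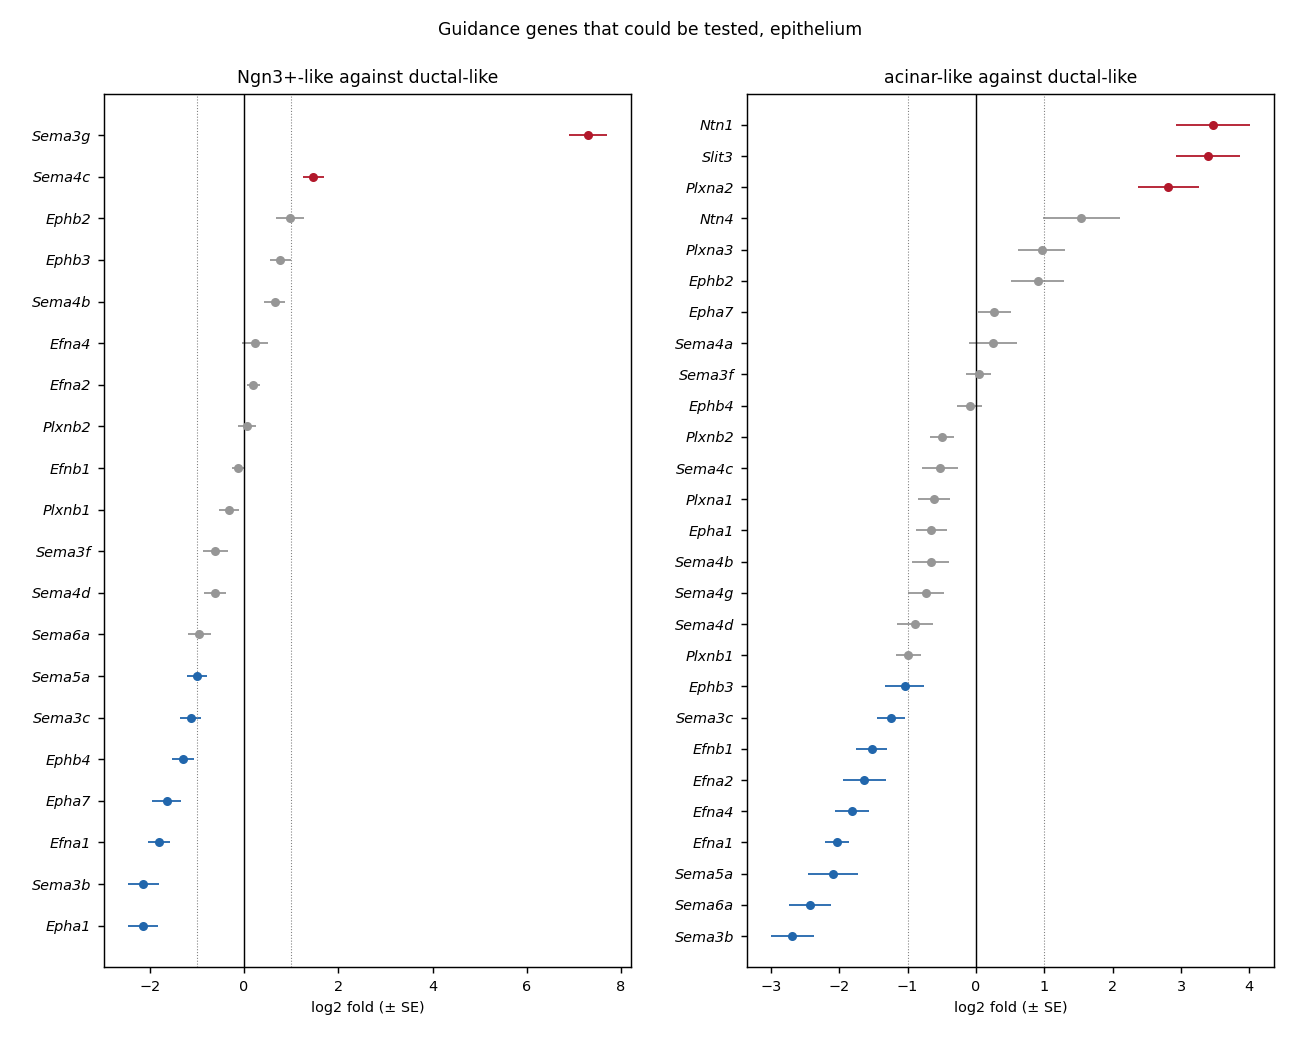
Log2 differences (points) with standard errors (bars) of the members tested in Ngn3+-like against ductal-like and acinar-like against ductal-like cells; red is called higher, blue called lower, grey not called, and dotted lines mark a 2-fold change. Sema3g lies far to the right at 7.30, and the ephrins Efna1, Efna4, Efnb1 and Efna2 lie to the left in acinar-like cells.

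Mesenchymal cells (mesothelial-like, VSM-like and other mesenchyme) were set against epithelial cells in 8 libraries. Of 51 members tested 25 were higher in mesenchyme and 5 lower, where 14.7% and 14.2% of all genes were called. By family, higher calls included 7 of 16 semaphorins, 6 of 8 ephrins and 7 of 11 Eph receptors tested. The filter was met by 18 members through mesenchymal cells only, *Slit2*, *Epha3*, *Sema3a*, *Sema5b* and *Plxna4* among them, and by 4 through epithelial cells only, so the filter leaned towards their direction. With no filter 29 of 65 members were higher and 9 lower, beside 3130 and 2811 of all 22162 genes. *Plxna4* and *Unc5a* were below the filter in the v1 libraries alone.

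*Slit2* (chr5:47983138-48307733, + strand) had a lowest level of 33.3, a median of 113 and a highest of 214 CPM in mesenchymal cells. In epithelial cells the same values were 0.582, 2.56 and 4.97 CPM. The classes did not overlap, and the difference was 5.30 ± 0.18 (log2, adjusted p = 4.28e-08). As the gene passed the filter through mesenchymal cells only, this p is a description and not a test.

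*Epha3*, an Eph receptor for A-type ephrins (chr16:63543534-63864175, - strand), was at 85.7 ± 20.7 against 2.18 ± 1.74 CPM (5.82 ± 0.43), and *Epha4*, which binds both types, at 57.6 against 2.44 CPM (4.68 ± 0.21). *Efnb1* (chrX:99136130-99148991, + strand) was at 79.8 against 17.8 CPM (2.09 ± 0.17) and *Efna5* differed by 3.37 ± 0.17. These ephrins and Eph receptors were higher in the same compartment, which describes the named members and not the families. The semaphorins *Sema3a* (20.1 against 0.583 CPM, 5.67 ± 0.32), *Sema5b* (4.99 ± 0.31) and *Sema5a* (50.3 against 6.16 CPM, 2.92 ± 0.26) were higher as well, with the plexin *Plxna4* (5.69 ± 0.42) and the netrin receptor *Unc5c* (3.48 ± 0.42).

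The 5 members that were lower in mesenchyme, and so higher in epithelium, were *Sema4a*, *Sema4d*, *Ntn4*, *Ntn1* and *Unc5a*. *Sema4d*, a membrane semaphorin known from T cells, was at 0.741 CPM in mesenchymal and 8.26 CPM in epithelial cells (-3.59 ± 0.46). *Ntn4* was at 0.309 against 3.51 CPM (-3.63 ± 0.51) and *Unc5a* at 0.571 against 4.44 CPM (-3.04 ± 0.44), while *Sema4a* differed by -1.54 ± 0.17. The 10 acinar markers were all lower in mesenchyme (58.0 to 1217 CPM summed, against 6976 to 52804). Of 47 pathway genes tested 12 were higher and 6 lower, led by *Flrt3* (3.71), *Rnd1* (3.78), *Dpysl3* (4.64) and *Mical1* (2.13).

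Endothelial-like cells were set against mesenchymal cells in 7 libraries, leaving out the Fev-Cre library. They numbered 28 to 245 per library, so that 1 UMI was worth 0.423 to 9.90 CPM. Of 40 members tested 8 were higher and 25 lower, beside 8.82% and 12.53% of all genes. The filter was met by 4 members through endothelial-like cells only (*Robo4*, *Plxnd1*, *Efnb2* and *Epha2*) and by 20 through mesenchymal cells only, so the filter leaned towards their direction and the lower count says little about the families. With no filter 12 of 65 members were higher and 33 lower, beside 1304 and 2521 of all 20081 genes.

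Among the 8 higher members were *Robo4*, *Plxnd1*, *Efnb2* and *Ephb4*, which are known from vessels. *Robo4* had 467 UMIs in endothelial-like and 8 in mesenchymal cells of these libraries, where no library exceeded 0.305 CPM, and differed by 9.60 ± 0.34 (adjusted p = 3.94e-10). *Plxnd1* was at 176 ± 104 against 3.25 ± 1.83 CPM (5.80 ± 0.32, adjusted p = 2.98e-08). In neither gene did the groups overlap. Both were tested through endothelial-like cells only, so the adjusted p of each is a description and not a test.

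*Efna1* was at 262 ± 86.9 CPM in endothelial-like cells, from 142 to 390 CPM with a median of 288, and at 54.3 ± 26.7 CPM in mesenchymal cells (2.31 ± 0.32). *Efnb2*, the ephrin of arteries, was at 23.0 against 5.29 CPM (1.95 ± 0.30) and its receptor *Ephb4*, known from veins, at 58.2 against 24.6 CPM (1.40 ± 0.22). The cells of arteries and veins were not told apart here. *Sema6a* (1.34 ± 0.24), *Sema6d* (1.43 ± 0.25) and the netrin receptor *Unc5b* (1.59 ± 0.30) completed the 8. In the v2-kit libraries alone *Sema6a* was not called (0.87, adjusted p = 0.0853).

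Lower members included the genes highest in mesenchyme. *Epha3* was at 3.58 against 88.0 CPM (-4.99 ± 0.42), *Slit2* at 5.67 against 106 CPM (-4.00 ± 0.38) and *Efnb1* at 19.8 against 79.0 CPM (-2.06 ± 0.18). *Ephb6*, a kinase-dead Eph receptor, had 0 of 5824307 UMIs in endothelial-like cells and 608 in mesenchymal cells of these libraries, which makes it at least 14.1-fold lower with a floor of 3 counts over the group. Of 9 erythroid markers 4 were higher in endothelial-like cells (468 to 78780 CPM summed, against 677 to 17014), and their part was not tested. The pathway list gave 10 higher and 6 lower of 35 tested, led by *Crmp1* (3.99), *Nrp2* (2.63), a semaphorin co-receptor, *Vav3* (3.45) and *Vasp* (1.26).

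Mesothelial-like cells, the covering layer of the organ, were set against the other mesenchymal cells of the same 8 libraries. Of 45 members tested 11 were higher and 7 lower, where 8.23% of all genes were called higher and 6.1% lower. The filter was met by 9 members through mesothelial-like cells only and by 8 through the others only. *Efna1* had a lowest level of 59.3, a median of 127 and a highest of 238 CPM in mesothelial-like cells, and 4.96, 13.2 and 20.5 CPM in the others, without overlap (3.37 ± 0.08, adjusted p = 7.85e-10).

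*Epha1* was higher here as well, at 27.7 ± 16.6 against 1.76 CPM (3.90 ± 0.25). Its shared direction with *Efna1*, here and in ductal-like cells, is no result about ligand and receptor. Its mean in the other mesenchymal cells lay below the filter's 2.60 CPM, so its being tested leaned towards mesothelial-like cells. The same holds for *Plxna4*, at 35.1 against 2.04 CPM (4.21 ± 0.27). Of the class 3 semaphorins that signal through such plexins with neuropilins, *Sema3c* was at 56.0 against 8.13 CPM (3.52 ± 0.39), and *Sema3b* (2.44 ± 0.34), *Sema3a* (2.05 ± 0.29), *Sema3d* (1.39 ± 0.33) and *Sema3f* (1.08 ± 0.15) were higher too. These were the 5 semaphorins called higher of 13 tested, which describes the members that could be tested and not the class. *Sema3d* and *Sema3f* lost their calls without the library block (adjusted p = 0.117 and 0.0528). In the v1 libraries alone *Sema3d* differed by 0.71 (adjusted p = 0.0640) and was not called. *Plxnb1*, *Ephb6* and *Ephb1* were the other higher members.

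The lower members were *Sema5b* (-3.19 ± 0.29), *Sema5a* (-2.15 ± 0.14), *Unc5c* (-2.15 ± 0.33), *Slit2* (-1.67 ± 0.30), *Ephb2* (-1.75 ± 0.25), *Sema6c* and *Unc5d*. *Slit2* remained abundant in mesothelial-like cells at 42.2 ± 26.8 CPM, against 130 ± 62.5 CPM in the others, and its call was lost in the v2-kit libraries alone (-1.63, adjusted p = 0.0540). Of 6 epithelial markers 3 were higher in mesothelial-like cells (186 to 476 CPM summed, against 11.2 to 104), and of 8 VSM markers 5 were lower (174 to 591 against 579 to 7514). What these markers contribute was not tested. Of 40 pathway genes 7 were higher and 8 lower, led by *Sh2d3c* (-2.68), *Neo1* (1.43), the netrin receptor neogenin, *Ntng1* (2.96) and *Nrp1* (-2.95).

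**Figure D4:**
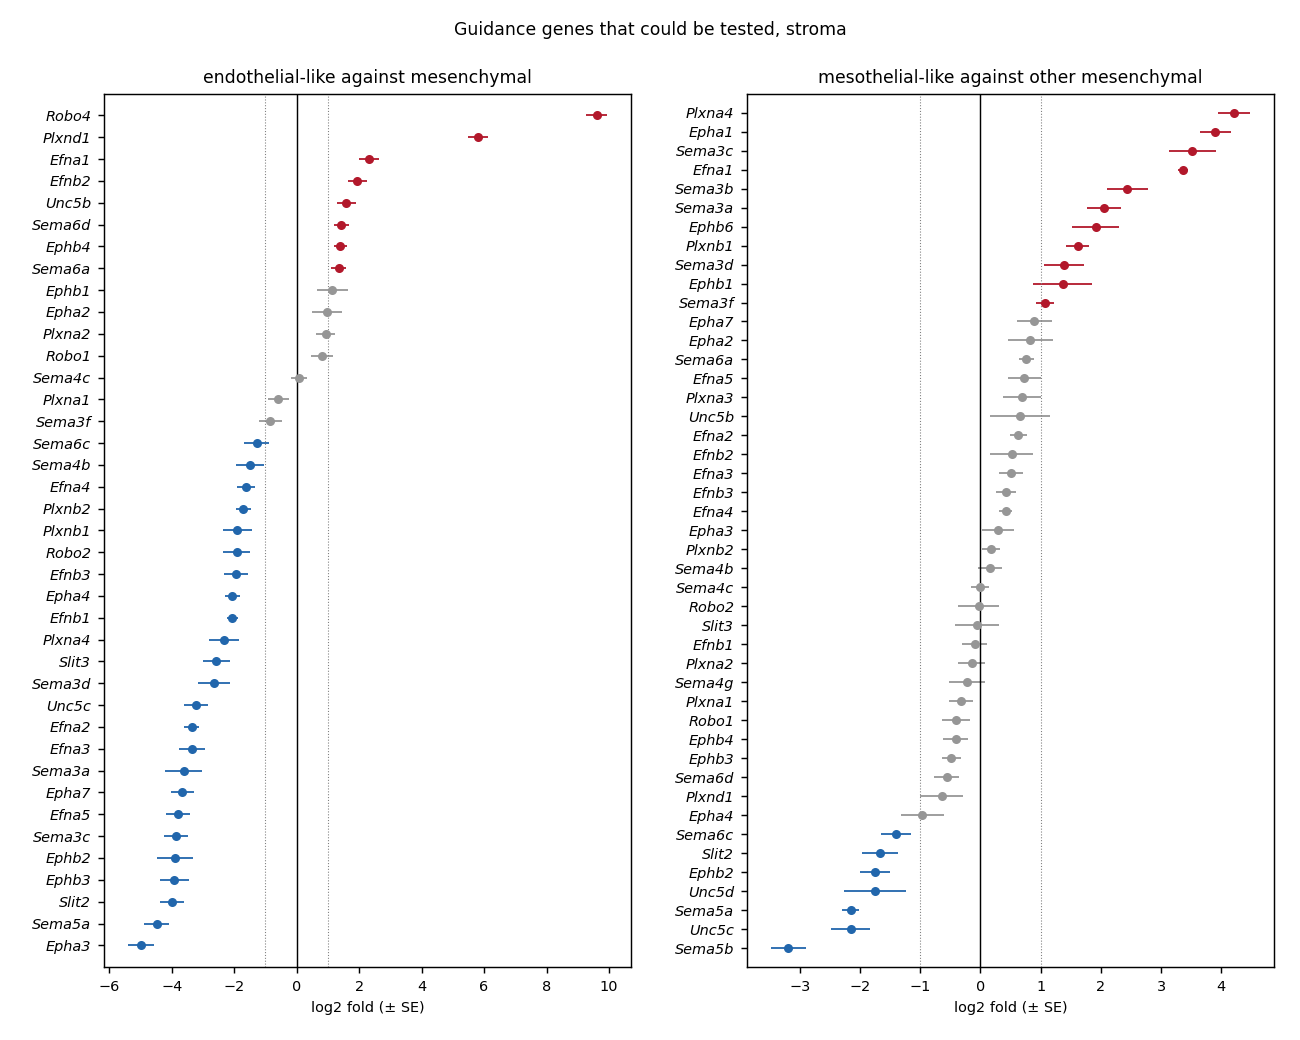
Log2 differences (points) with standard errors (bars) of the members tested in endothelial-like against mesenchymal and mesothelial-like against other mesenchymal cells; red is called higher, blue called lower, grey not called, and dotted lines mark a 2-fold change. Ephb6 is left out of the endothelial panel because it had no UMI in endothelial-like cells. Robo4 (9.60) and Plxnd1 (5.80) lead the endothelial panel, and Plxna4, Epha1, Sema3c and Efna1 the mesothelial one.

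Change with stage was fitted over the 7 Swiss Webster libraries with the kit as a second term, comparing E17.5 with E12.5. In ductal-like cells 27 members were tested, 1 rose and 2 fell, with 4.68% of all genes called higher and 1.97% lower. *Slit3* was at 6.45 and 9.13 CPM in the E12.5 libraries (v1 and v2), at 2.19, 0 and 1.22 CPM at E14.5 (v1 batch 1, v1 batch 2 and v2), and at 0 and 0.317 CPM at E17.5 (v1 and v2). Its fall of 4.69 ± 0.86 on the log2 scale had an adjusted p of 0.00508. In the same order *Plxna2* was at 16.1 and 8.77, then 4.92, 3.69 and 1.58, then 3.25 and 1.21 CPM (-2.61 ± 0.62, adjusted p = 0.0229). *Efna1* rose from 16.1 and 12.7 over 27.3, 42.4 and 22.9 to 52.1 and 30.3 CPM (1.5 ± 0.38, adjusted p = 0.0328).

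In all 3 genes the E12.5 and E17.5 libraries did not overlap. They were called for this same difference and the share of all genes without overlap is not given, so this is a description. In ductal-like cells 1 UMI was worth 3.22 CPM in E12.5 v1 and 1.63 CPM in E17.5 v1. The v1 levels of *Slit3* and *Plxna2* thus rest on few UMIs. Without the E12.5 v2 or the E17.5 v2 library edgeR called 0 members (4 in each case at an unadjusted p below 0.05), and without E14.5 v1 batch 1 there were 10. The call of *Efna1* was also lost without E12.5 v1 (adjusted p = 0.0918), without E17.5 v1 (0.0614) and without TMM (0.0524), and *Slit3* fell below the filter without E14.5 v2. Without the kit term *Slit3* alone stayed called. *Slit3* and *Plxna2* were thus the members higher in acinar-like than ductal-like cells whose ductal levels also fell with stage. Both comparisons use ductal-like sums of the same libraries, so these results are not independent. Of 34 pathway genes tested 4 rose and 2 fell, led by *Flrt2* (-3.24), *Mical2* (4.29), *Ngef* (3.46) and *Dpysl4* (3.57).

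In mesenchymal cells 55 members were tested, 4 rose and 3 fell from E12.5 to E17.5, with 9.61% of all genes called higher and 3.12% lower. The secreted semaphorin *Sema3d* (chr5:12383385-12588948, + strand) was at 4.46 and 5.97 CPM at E12.5, at 21.1, 27.8 and 15.3 CPM at E14.5, and at 31.4 and 76.2 CPM at E17.5. It rose by 3.53 ± 0.44 (log2, adjusted p = 0.00112). *Efna3* fell, from 40.2 and 46.3 over 35.4, 36.4 and 25.8 to 10.1 and 3.34 CPM (-2.70 ± 0.43, adjusted p = 0.0039). The other calls were rises of *Sema3b* (2.27 ± 0.39), *Sema3c* (2.17 ± 0.40) and *Epha2* (2.13 ± 0.54, adjusted p = 0.0311) and falls of *Unc5c* (-2.05 ± 0.36) and *Efna4* (-1.54 ± 0.31). DESeq2 called 12 members where edgeR called 7, and without TMM (median of all genes -0.21, with 935 called higher and 573 lower in place of 1337 and 434) the members' split was 3 and 3. *Efna4*, *Epha2* and *Unc5c* were not called without the E12.5 v2 library or without the E17.5 v2 library, and *Sema3b* not without the latter. *Efna4* was also not called without E17.5 v1 (adjusted p = 0.0515), nor *Epha2* without E14.5 v1 batch 2 (0.0604) or without TMM (0.0694). Without the kit term 5 of the 7 lost their calls, all but *Sema3d* and *Efna3*.

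The makeup of the mesenchymal cells moved with the kit and sort: mesothelial-like cells were 9.41%, 13.5%, 17.4% and 3.50% of mesenchymal cells in the v1 libraries (E12.5, both E14.5 batches, E17.5) and 69.3%, 73.7% and 66.3% in the v2 libraries (E12.5, E14.5, E17.5). Within mesothelial-like cells alone, the E12.5 libraries (v1, v2) and the E17.5 libraries (v1, v2) had the same direction as above for all 7 genes. The E17.5 v1 library had 40 mesothelial-like cells, where 1 UMI is worth 6.43 CPM, so its levels rest on 0 to 16 UMIs a gene and say little for the sparse ones. *Sema3d* was at 4.77 and 7.87 CPM, then at 103 and 108. *Epha2* was at 0.596 and 1.05 CPM, then at 19.3 and 11.7, where 0.596 and 19.3 CPM, both from v1, are 1 and 3 UMIs.

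*Efna3* was at 91.2 and 53.2 CPM in mesothelial-like cells at E12.5 and at 6.43 CPM, a single UMI, and 2.47 CPM at E17.5. *Unc5c* was at 32.8 and 26.4 CPM, then at 0 and 2.24, where the 0 allows up to 3 UMIs. In the other mesenchymal cells *Sema3d* was at 4.42 and 1.03 CPM at E12.5 and at 27.9 and 10.8 CPM at E17.5, *Sema3c* at 0.726 and 1.03, then at 29.8 and 19.1, and *Unc5c* at 56.4 and 54.7, then at 15.7 and 13.2. For *Sema3d*, *Sema3c* and *Unc5c* the direction was the same in both sets of cells. Levels of the other called genes in the other mesenchymal cells are not given here. The other mesenchymal cells are, however, a different mix at each stage: at E12.5 they held 457 VSM-like, 1568 other and 1487 unnamed mesenchymal cells in v1 and 176, 221 and 937 in v2. At E17.5 they held 134, 932 and 38 in v1 and 363, 0 and 20 in v2, so makeup and stage cannot be told apart in them. Of 48 pathway genes tested 4 rose and 5 fell, led by *Nrp1* (2.03), *Dpysl4* (-1.98), *Evl* (-1.88) and *Ntng1* (-2.42).

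**Figure D5:**
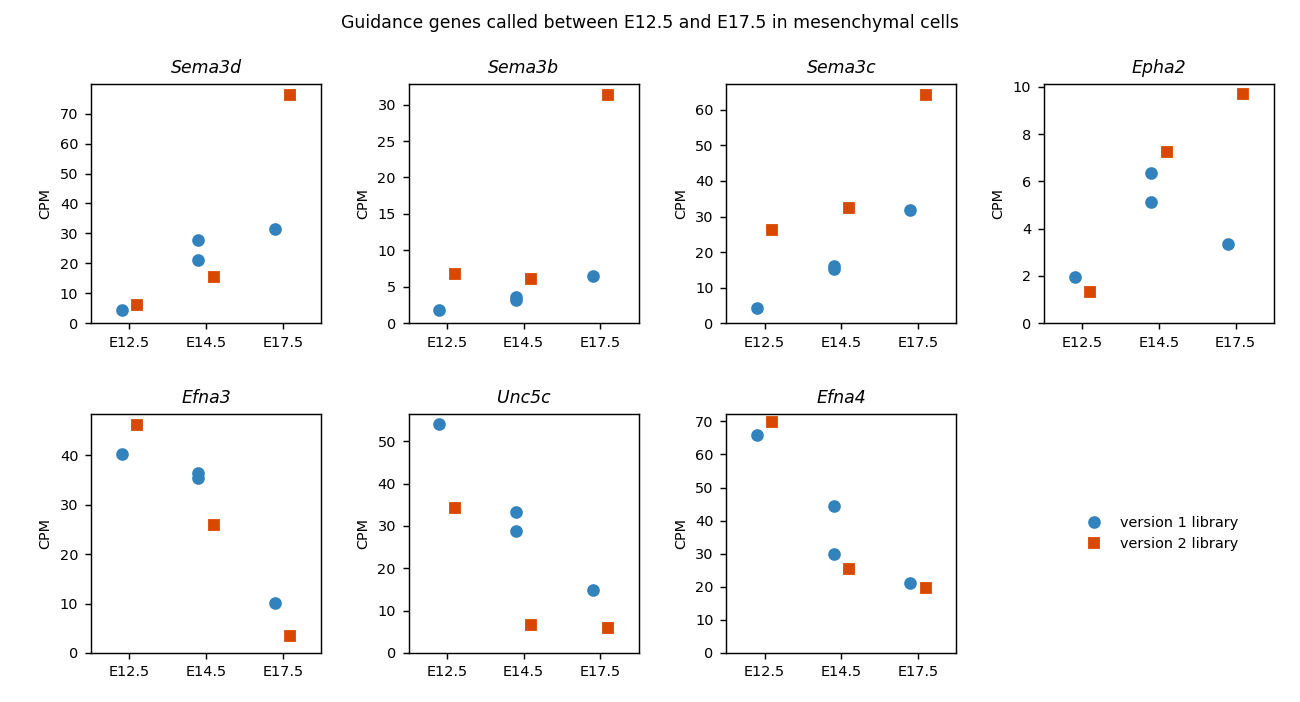
CPM of the 7 called guidance genes in mesenchymal cells by embryonic day; circles are v1 libraries (all live cells) and squares v2 libraries (CD140a- cells). Sema3d climbs from 4.46 and 5.97 CPM at E12.5 to 31.4 and 76.2 CPM at E17.5, and Efna3 declines to 10.1 and 3.34 CPM.

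In endothelial-like cells 7 members passed the filter and 0 were called by edgeR or by DESeq2, where 3.08% of all genes were called higher and 1.25% lower. At an unadjusted p below 0.05 there were 2, *Robo4* (0.98 ± 0.35, adjusted p = 0.148) and *Ephb4* (0.91, adjusted p = 0.248). Without TMM the median of all genes moved to -0.133 and the split over all genes from 170 higher and 69 lower to 133 and 102. On simulated counts for this comparison, 21% of genes changed 2-fold and 85% of genes changed 4-fold were recovered. Of 19 pathway genes 2 rose, *Tspan12* (1.80) and *Mcam* (1.83), and *Crmp1* fell (-3.15).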

How the data were processed

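Fetal mouse pancreas cells were profiled with droplet 3′ sequencing. The authors aligned reads to mm10 with Cell Ranger 1.1 (v1) or 2.1 (v2 and Fev-Cre) and deposited UMI count matrices, and these counts were used as deposited. The second alignment of the Fev-Cre library, without reporter sequences, was not used (1 matrix).

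Barcodes with at least 200 genes were kept. The v1, v2 and Fev-Cre cells were clustered separately on scaled and log-transformed counts. From these, 2000 variable genes (122 guidance and pathway genes held out), 20 principal components, 20 neighbours and Leiden resolution 1 (leidenalg 0.10.2, seed 1) gave the clusters. A cluster was named when at least 3 markers of a list were each in 10% of its cells (for some sub-clusters also 1.5-fold above the others), and when the next list scored below 85% of the best; these limits were set after the clusters were seen. Cells in which the lists of at least 2 compartments that exclude each other each reached 30% of their usual share of UMIs were set aside as doublets, without a doublet caller. Free RNA was not removed.

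UMIs were summed per class and library (at least 20 cells) and tested with edgeR 4.0.16 (glmQLFit and glmQLFTest, TMM, filterByExpr, library as a block) in R 4.3.3. Adjusted p-values are Benjamini-Hochberg over all genes tested, and SE is the log2 difference divided by the square root of F. Stage fits used kit and stage. DESeq2 1.42.0, other scalings, filters, clusterings, kits and left-out libraries were alternatives. Classes of 1 library come from the same cell suspension, so the library pairs them, and their deviations from the class means correlated at 0.189 to 0.833. On simulated counts with 100 genes changed by each fold, the Ngn3+-like against ductal-like fit recovered 96% at 2-fold and 98% at 4-fold over 8277 genes. The ductal-like stage fit recovered 13% and 60% over 10208 genes, and the mesenchymal stage fit 8% and 59% over 13523.

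In each comparison, called members that moved the same way in every library were named, up to 12 per direction by adjusted p, with the 4 members of each family with most UMIs; the others are given as counts, ranges or, where single values are printed, as chosen after the values were seen. The 4 pathway genes with the lowest adjusted p were named. Members, gene lists and tests were chosen with earlier results of these data known. Promoters are from RefSeq (GRCm38.p6) and gene positions from GENCODE M21 (GRCm38). Poisson intervals (95%) and floors of 3 counts cover counting error only.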

Additional observations from a re-analysis of the deposited data

Results flagged for a closer look

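In each comparison the log2 ratio of the 2 classes, with 1 CPM added to each, was examined library by library for the named members. Of 72 such sets 7 held 1 library far from the rest by Dixon's criterion at the 95% level, and chance alone flags about 1 in 20 sets. In 5 of the 7 the distant library had no UMI in the class named first. *Ephb4* in Ngn3+-like against ductal-like cells was at -4.67 in E17.5 v1 (0 against 24.4 CPM), and *Sema3c* in the same comparison and library at -5.94 (0 against 60.2 CPM). *Sema3c* in acinar-like against ductal-like cells was also at -5.94 in E17.5 v1 (0 against 60.2 CPM). *Efna2* in endothelial-like against mesenchymal cells was at -6.25 in E14.5 v1 batch 1 (0 against 75.1 CPM), and *Sema5b* in mesothelial-like against other mesenchymal cells at -5.6 in the same library (0 against 47.6 CPM). In these 5 sets the distant library had the same sign as the others. In E17.5 v1, 1 UMI was worth 14.7 CPM in Ngn3+-like and 7.73 CPM in acinar-like cells. It was worth 9.90 CPM in endothelial-like and 1.25 CPM in mesothelial-like cells of E14.5 v1 batch 1.

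The other 2 sets also came from E14.5 v1 batch 1. *Sema3g* in Fev+-like against Ngn3+-like cells was at -0.233 (14.6 against 17.3 CPM), where the other libraries lay between -4.93 and -3.21. *Robo2* in hormone+-like against Fev+-like cells was at 4.07 (15.9 against 0 CPM), where the others lay between 0.44 and 1.43. What sets these libraries apart was not tested.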

How the results depend on the processing

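Over 174 alternative counts of called members, 134 stayed within 1.5 times the reported count and 40 did not. Shares over all genes are given above for only some of these fits. The counts below thus show how the calls depend on the settings and nothing about the members. With no low-count filter the counts were 23 in Ngn3+-like against ductal-like, 15 in Fev+-like against Ngn3+-like, 7 in hormone+-like against Fev+-like, 11 in beta-like against alpha-like and 21 in acinar-like against ductal-like cells, and 9 and 16 for stage in ductal-like and mesenchymal cells. With v1 libraries only they were 1, 0 and 5 for Ngn3+-like, beta-like (2 members tested, 0 at an unadjusted p below 0.05) and acinar-like cells. With v2-kit libraries only they were 15, 8, 4 and 5 for Ngn3+-like, Fev+-like, hormone+-like and acinar-like cells. Finer clustering and clustering with the members allowed each gave 1 in hormone+-like cells. Without TMM the acinar-like count was 18. Dropping the library block gave 1 call in hormone+-like and 1 in beta-like cells, and beside the losses given above it moved no other count by over 1.5 times. Dropping the kit term left 1 call in ductal-like and 2 in mesenchymal cells, and DESeq2 gave 12 in mesenchymal cells by stage. Leaving out 1 library at a time gave 5 to 11 calls in Ngn3+-like, 1 to 7 in Fev+-like, 1 to 3 in hormone+-like, 0 to 3 in beta-like, 8 to 17 in acinar-like, 28 to 31 in mesenchymal, 32 to 34 in endothelial-like and 17 to 19 in mesothelial-like cells. By stage it gave 0 to 10 in ductal-like, 4 to 10 in mesenchymal and 0 in endothelial-like cells. Without the E17.5 v2 library the Ngn3+-like count was 5 and the Fev+-like count 1, as it was without Fev-Cre. For the 82 named differences, 1273 alternative values gave 1224 on the same side of the threshold, 49 weaker and 0 reversed, and 49 more fell below the count filter. The leading class stayed the same for 64, 63 and 59 of 65 members under other clusterings and with doublets kept. Depth limits the sparse classes most: 1 UMI was worth up to 14.7 CPM in Ngn3+-like cells.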

Other observations

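Some classes outside the comparisons also held abundant guidance genes. In neural crest- and glia-like cells of 4 libraries, *Efna5* had a mean of 52.9 CPM (37.6 to 71.5), *Sema3c* 48.9 (18.1 to 96.0) and *Epha7* 37.1 CPM (16.0 to 53.6), beside *Epha5*. The mean of 48.5 CPM for *Sema3b* rests on E17.5 v2, at 165 CPM, since the other 3 libraries were at 7.10, 7.27 and 14.3 CPM. Immune-like cells led for *Sema4d* (29.1 CPM, against 13.8 in ductal-like cells), *Sema4a* (23.6 CPM) and *Plxnc1* (14.6 CPM), a plexin known from leukocytes. These are levels with no test.

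In the E12.5 v2 library 2307 epithelial cells matched no marker list, beside 2114 ductal-like cells of the same library. *Slit3* was at 29.2 CPM in them (95% Poisson interval 27.3 to 31.1) and at 9.13 CPM in the ductal-like cells (7.83 to 10.6), and *Plxna2* at 19.1 and 8.77 CPM. *Efna4* (34.7 against 57.9 CPM), *Sema6a* (13.8 against 30.5 CPM) and *Efnb1* (15.9 against 26.3 CPM) were lower. This is 1 library, so the values have no replicate check and the intervals cover counting error only.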
